A study of Mus musculus with 6 samples.

Results

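Messenger RNAs of the pancreas were followed in 6 samples of mouse intestine collected after total body irradiation. The list holds 32 genes that mark the exocrine pancreas and the islets. It was drawn up with earlier results of these data known, and each gene was measured by the probe chosen by the highest mean over the 6 arrays. A named probe was found for 29 of the 32 among the 19057 genes named on the arrays. Pnlip, the main lipase of pancreatic juice, Tmed6, a protein of the secretory route, and Ins1, an insulin gene, had no named probe and were not analysed here.

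Male C57 mice, 4 weeks old per the labels, received a single 7 Gy dose to the whole body and were then given PBS or free ubiquitin (free Ub), and the intestine was taken 3.5 days after radiation. Intestinal RNA was hybridised to 1 Illumina MouseWG-6 v2 array per sample, with 3 PBS samples (PBS 1 to PBS 3) and 3 free Ub samples (free Ub 1 to free Ub 3). All mice were irradiated, no unirradiated intestine was included, and the labels name neither the stretch of intestine nor the dose of free Ub. The study's own text gives another age and another time for the arrays and, in its general methods, injection before radiation, so age, time and order of treatment enter no comparison here.

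The exocrine pancreas is made of acinar cells, which store inactive proteases, lipases, nucleases and amylase in zymogen granules and release them into ducts that drain into the duodenum. The islets are small clusters of endocrine cells that secrete insulin, amylin, glucagon, somatostatin and pancreatic polypeptide into the blood. In the mouse the pancreas spreads through the mesentery beside the duodenum, and acinar enzyme messages are among the most abundant of any tissue.

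The columns shared a common median and a common highest value of 14.49 log2, and 32.2% to 33.7% of the probes of each array lay at a floor near 0. A value at the floor is given here as "at the floor", with no fold against it. Of the 14 markers of small intestinal epithelium, 13 were above the floor in all 6 samples, and the median span of the 14 from lowest to highest sample was 0.48 log2, while Fabp2, a fatty acid binding protein of enterocytes, was at the floor in 3 samples. Of 9 measured genes of the ileum list, 2 (Fabp6 and Slc10a2, which handle bile acids) were at the floor in all 6 samples and 7 above it in all 6, among them Slc51a and Slc51b. Of 7 measured colon genes, 1 (Hoxb13) was at the floor in all 6 and 4 above it in all 6. The free Ub 3 sample stood apart in the acinar genes by its low values, and the main counts and the widest spans are also given without it.

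The acinar genes varied widely from sample to sample, within each treatment as well as across both. Of the 29 measured members, 24 were above the floor in all 6 samples, and 18 of these spanned at least 4 log2 from the lowest sample to the highest, against 0.52% of the 11923 named genes above the floor throughout. Without free Ub 3, 11 of the 24 spanned at least 4 log2, against 0.344% of those genes. At least 1 log2 was spanned by 21 of the 24, against 37.1% of those genes, and by as many without free Ub 3. In 18 of the 24 the PBS 3 and free Ub 1 samples held the highest 2 values and free Ub 3 the lowest, an order that 1.68% of the 11923 genes showed. Without free Ub 3, 20 of the 24 had PBS 3 and free Ub 1 highest and PBS 2 lowest. The share of all genes with that order was not counted, and the 1.68% belongs to the order over 6 samples. Both orders were noticed in the members themselves and are descriptions.

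**Figure D1:**
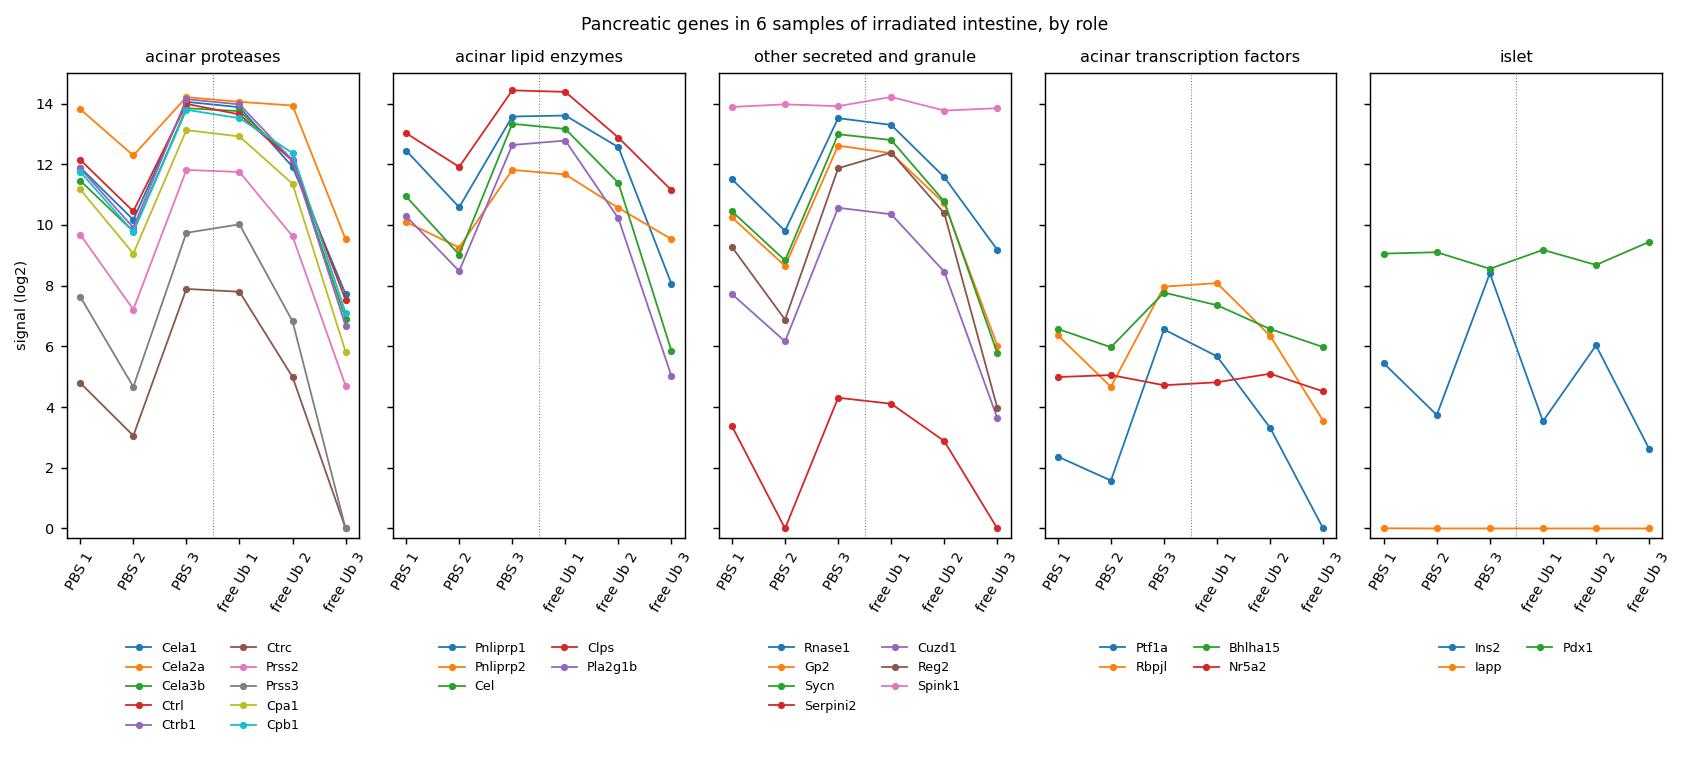
Signal of the 29 measured members in each sample (log2, vertical axis), split by role, with 1 line per gene and the dotted line between the PBS and free Ub samples. Most acinar lines peak in PBS 3 and free Ub 1 and are lowest in free Ub 3, whereas Spink1, Nr5a2 and Pdx1 stay within 1 log2.

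The proteases are secreted as zymogens and activated in the gut lumen by trypsin. Triplets of values run from sample 1 to sample 3 of a group and are log2 signals. Ctrb1, chymotrypsinogen B, read 11.87, 9.91 and 14.15 in the PBS samples and 13.97, 12.13 and 6.68 in the free Ub samples. Its highest and lowest samples differed 177-fold, or 18.8-fold without free Ub 3, and PBS 3 lay within 0.5 log2 of the highest value of the array, where a fold can be understated. The groups overlapped, and 2 of the 3 PBS values lay within the range of the free Ub samples. Ctrl, a chymotrypsin-like protease, gave 12.15, 10.45 and 13.99 with PBS and 13.64, 12.12 and 7.53 with free Ub. Ctrc, chymotrypsin C, which degrades trypsinogen, was dimmer at 4.80, 3.06 and 7.89 with PBS and 7.80 and 4.99 in free Ub 1 and free Ub 2, and was at the floor in free Ub 3. In all 3 chymotrypsin genes PBS 3 was highest and free Ub 3 lowest, and the groups overlapped.

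Elastases cleave beside small aliphatic residues. Cela1 read 11.89, 10.17 and 14.06 with PBS and 13.88, 11.92 and 7.73 with free Ub. Cela3b read 11.46, 9.79 and 13.85 with PBS and 13.75, 12.15 and 6.91 with free Ub, a 123-fold span. Cela2a kept the same order over a narrower span, with 13.82, 12.29 and 14.21 in the PBS samples and 14.06, 13.94 and 9.53 in the free Ub samples. PBS 3 and free Ub 1 lay within 0.5 log2 of the highest value of the array for Cela2a, where a further rise could not be seen. Across the members, 8 values in 6 genes lay that close to the top.

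Trypsinogens start the activation cascade. Prss2, anionic trypsinogen, read 9.68, 7.21 and 11.81 with PBS and 11.75, 9.63 and 4.70 with free Ub, a 139-fold span. Prss3, another trypsinogen, reached 9.74 in PBS 3 and 10.02 in free Ub 1 and was at the floor in free Ub 3, with 7.64, 4.67 and 6.83 in PBS 1, PBS 2 and free Ub 2. Trypsinogen, chymotrypsinogen and elastase genes have close paralogs, and a probe may take signal from more than 1 of them, so the share of each is uncertain. The carboxypeptidases trim residues from the C-terminal end. Cpa1, which removes aromatic and aliphatic residues, read 11.17, 9.06 and 13.13 with PBS and 12.92, 11.36 and 5.82 with free Ub. Cpb1, which removes basic residues, read 11.75, 9.77 and 13.79 with PBS and 13.52, 12.37 and 7.11 with free Ub. Both followed the order of the other proteases, from PBS 3 and free Ub 1 at the top to free Ub 3 at the bottom.

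Among the genes of fat digestion, Cel, the bile salt-dependent lipase, read 10.94, 9.02 and 13.33 with PBS and 13.17, 11.38 and 5.85 with free Ub, a 179-fold span that was 19.8-fold without free Ub 3. Pla2g1b, the secreted phospholipase A2 of pancreatic juice, read 10.29, 8.48 and 12.64 with PBS and 12.78, 10.21 and 5.02 with free Ub, a 217-fold span that was 19.7-fold without free Ub 3. Pnliprp1, a lipase-related protein, read 12.45, 10.59 and 13.57 with PBS and 13.61, 12.56 and 8.06 with free Ub. These 3 genes had the order of the proteases, with free Ub 1 a little above PBS 3 for Pla2g1b and Pnliprp1. Clps, colipase, the cofactor that anchors lipase to fat droplets, spanned 9.79-fold, with 13.02, 11.91 and 14.44 in the PBS samples and 14.39, 12.88 and 11.14 in the free Ub samples. Its 2 highest values lay close to the top of the scale, and a dimmer Clps probe spanned 19.7-fold, from 9.73 in free Ub 3 to 14.03 in PBS 3. Pnliprp2, a lipase that also acts on galactolipids, had 10.10, 9.26 and 11.82 with PBS and 10.56 and 9.53 in free Ub 2 and free Ub 3, with 11.66 in free Ub 1. For Pnliprp2 the lowest sample was PBS 2 and not free Ub 3, and its span of 5.89-fold was the narrowest among the 13 enzymes above the floor throughout. A further probe of Pnliprp2 gave the same lowest and highest samples, with 8.12 in PBS 2 and 11.13 in PBS 3.

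To set the samples in 1 order, each enzyme's mean over the 6 samples was subtracted and the median taken over the 15 measured acinar enzymes. These medians were 0.39, -1.52 and 2.53 log2 in PBS 1 to PBS 3 and 2.34, 0.50 and -4.41 log2 in free Ub 1 to free Ub 3. The PBS samples alone spanned 4.05 log2 and the free Ub samples alone 6.75 log2, and the full range of 6.94 log2 corresponds to 123-fold. Without free Ub 3 the range was 4.06 log2. With enzymes at the floor in any sample left out, all 13 remaining enzymes were higher in free Ub 1 than in free Ub 3, by a median of 85.2-fold, although both samples had the same treatment. Within the PBS group all 13 were higher in PBS 3 than in PBS 2, by a median of 16.3-fold. Across the groups, PBS 3 and free Ub 1 differed by a median of only 0.15 log2, and free Ub 2 and PBS 1 by 0.12 log2. The RNA is from whole tissue, where fewer acinar cells and less RNA per cell cannot be told apart.

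**Figure D2:**
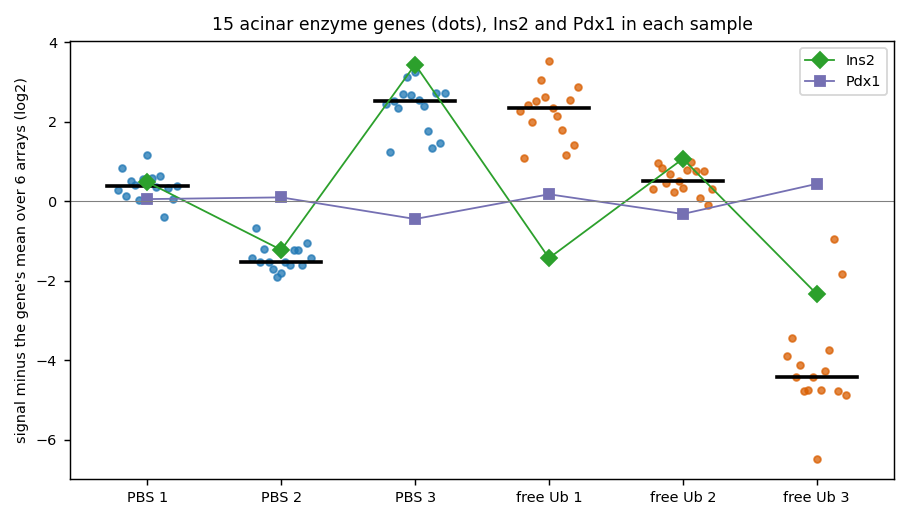
Signal minus the gene's own mean over the 6 samples (log2, vertical axis) for the 15 measured acinar enzymes (dots, PBS blue and free Ub orange), with a black bar at their median in each sample, and for Ins2 (green diamonds) and Pdx1 (violet squares). The enzyme medians run from 2.53 in PBS 3 to -4.41 in free Ub 3, and Ins2 is low in free Ub 1 where the enzymes are high.

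The other secreted and granule genes gave the same picture with 1 exception. Rnase1, pancreatic ribonuclease, read 11.50, 9.81 and 13.52 with PBS and 13.30, 11.58 and 9.18 with free Ub. Gp2, the main glycoprotein of the zymogen granule membrane, read 10.25, 8.65 and 12.61 with PBS and 12.37, 10.71 and 6.03 with free Ub. Sycn, syncollin, which lines that membrane, read 10.45, 8.83 and 12.99 with PBS and 12.80, 10.77 and 5.77 with free Ub. In these genes the lowest sample was free Ub 3, but Rnase1 spanned 20.2-fold where Sycn spanned 149-fold. Cuzd1, another zymogen granule protein, read 7.72, 6.16 and 10.57 with PBS and 10.35, 8.46 and 3.64 with free Ub. Serpini2, a protease inhibitor of acinar cells, was dim throughout, reached 4.31 in PBS 3 and 4.11 in free Ub 1, and was at the floor in PBS 2 and free Ub 3. Reg2, a secreted lectin-like protein of the pancreas, had the widest span of the members above the floor in all samples, 341-fold (45.4-fold without free Ub 3), from 3.97 in free Ub 3 to 12.39 in free Ub 1, with 9.27, 6.88 and 11.87 in the PBS samples and 10.39 in free Ub 2. Among its relatives, Reg3d moved the same way, from 1.47 in free Ub 3 to 9.66 in PBS 3, and Reg3a had the same high and low samples over a narrower range, from 9.86 to 11.95. Reg3g stayed between 11.14 and 11.66, and Reg1 between 14.15 and 14.41 and Reg3b between 14.01 and 14.36, both close to the top of the scale.

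Spink1, the trypsin inhibitor that acinar cells package with trypsinogen and that the gut mucosa also makes, was the exception. It stayed between 13.77 and 14.22 in all 6 samples, a span of 0.45 log2, also near the top of the scale.

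Acinar identity rests on a small set of transcription factors. Ptf1a and Rbpjl bind DNA together in the PTF1 complex, which recognises an E-box joined to an RBPJ-type motif and drives digestive enzyme genes, and Rbpjl is itself one of its targets. Ptf1a read 2.37, 1.58 and 6.56 with PBS, 5.67 and 3.32 in free Ub 1 and free Ub 2, and lay at the floor in free Ub 3. Its other probe, of 3.71, 0.89 and 4.78 with PBS and 3.73 and 1.58 in free Ub 1 and free Ub 3, was at the floor in free Ub 2, so the lowest sample of Ptf1a depended on the probe. Rbpjl read 6.37, 4.67 and 7.97 with PBS and 8.08, 6.35 and 3.55 with free Ub, a 23.2-fold span with the high and low samples of the enzymes. Further probes of Rbpjl, Cela1 and Cpb1 were dim, at most 2.26, 0.84 and 3.41 log2, and did not have the acinar order. Bhlha15, also known as Mist1, which shapes the secretory apparatus of acinar and other secretory cells, read 6.57, 5.97 and 7.77 with PBS and 7.36, 6.57 and 5.98 with free Ub. Its high samples were those of the enzymes over a span of 1.80 log2, with PBS 2 and free Ub 3 almost level at the bottom. Dimmer probes of Bhlha15 had the same high samples and spanned 2.25 and 1.61 log2. In these probes PBS 2 was lowest, at 4.83 and 4.59, against 5.39 and 4.77 in free Ub 3. Nr5a2, a nuclear receptor of acinar cells and of intestinal crypts, read 4.99, 5.05 and 4.72 with PBS and 4.82, 5.10 and 4.52 with free Ub, a span of 0.58 log2 in another order. A dimmer Nr5a2 probe spanned 1.97 log2, from 2.20 in PBS 2 to 4.18 in free Ub 1. The dimmest spanned 2.11 log2 and was at the floor in 2 samples, so the span of Nr5a2 depended on the probe.

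The promoters of 6 members are shown because these genes moved together over the 6 samples and because 5 of them were the measured enzymes with the longer form of the RBPJ-type motif. Sequences are from RefSeq on GRCm38.p6, cover the 250 bases before the transcription start, run 5′ to 3′ along the gene's own strand, and were held for 28 of the 32 genes. Capitals mark TGGGAA on either strand (TTCCCA on the reverse) and each CANNTG within 30 bases of it. Cel is at chr2:28563404-28563653 on the minus strand, Ctrb1 at chr8:111691011-111691260 on the minus strand, Cpa1 at chr6:30638968-30639217 on the plus strand, Cela2a at chr4:141826006-141826255 on the minus strand, Prss2 at chr6:41521526-41521775 on the plus strand and Rbpjl at chr2:164402944-164403193 on the plus strand.
Cel: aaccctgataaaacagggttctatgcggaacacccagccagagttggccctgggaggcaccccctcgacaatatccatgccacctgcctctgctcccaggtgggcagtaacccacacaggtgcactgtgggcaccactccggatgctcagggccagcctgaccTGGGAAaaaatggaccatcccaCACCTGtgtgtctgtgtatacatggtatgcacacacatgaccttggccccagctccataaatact
Ctrb1: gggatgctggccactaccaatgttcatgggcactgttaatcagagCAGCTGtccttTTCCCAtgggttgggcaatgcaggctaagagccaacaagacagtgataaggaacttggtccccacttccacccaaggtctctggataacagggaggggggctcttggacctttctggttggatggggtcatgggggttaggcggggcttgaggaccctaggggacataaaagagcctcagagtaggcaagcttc
Cpa1: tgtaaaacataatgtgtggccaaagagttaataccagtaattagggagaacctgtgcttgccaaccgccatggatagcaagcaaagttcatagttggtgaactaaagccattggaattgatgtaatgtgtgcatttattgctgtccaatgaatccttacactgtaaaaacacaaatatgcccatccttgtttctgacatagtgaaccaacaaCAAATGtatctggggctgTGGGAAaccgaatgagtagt
Cela2a: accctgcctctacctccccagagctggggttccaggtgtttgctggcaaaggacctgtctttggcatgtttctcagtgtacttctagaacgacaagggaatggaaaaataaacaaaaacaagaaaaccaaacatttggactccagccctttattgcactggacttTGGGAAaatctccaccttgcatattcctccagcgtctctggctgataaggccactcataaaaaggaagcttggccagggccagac
Prss2: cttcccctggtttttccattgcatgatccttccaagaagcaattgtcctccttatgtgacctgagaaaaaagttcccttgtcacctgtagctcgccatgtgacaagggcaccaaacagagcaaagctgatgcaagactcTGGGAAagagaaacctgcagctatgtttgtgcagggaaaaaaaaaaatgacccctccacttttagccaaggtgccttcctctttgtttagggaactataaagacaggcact
Rbpjl: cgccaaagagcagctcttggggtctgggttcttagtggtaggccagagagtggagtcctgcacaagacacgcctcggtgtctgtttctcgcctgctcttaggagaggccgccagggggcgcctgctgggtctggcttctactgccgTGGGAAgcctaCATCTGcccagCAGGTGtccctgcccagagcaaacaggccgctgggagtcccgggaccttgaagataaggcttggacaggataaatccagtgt

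Counted from the first base of each match, in Rbpjl the TGGGAA lay 104 bases before the start with CANNTG 11 bases further on, in Cel 87 bases before it with CANNTG 22 bases further on, in Ctrb1 the CANNTG began 11 bases before a reverse TTCCCA, and in Cpa1 18 bases before TGGGAA. Cela2a and Prss2 carried TGGGAA at 85 and 111 bases before the start with no CANNTG within 30 bases. CANNTG, searched on both strands as it reads the same on each, was present in 12 of 13 enzyme promoters and in 66.2% of the 32851 mouse promoters of this length. TGGGAA was present in 7 of 13 enzyme promoters and in 21.6% of all, and TGGGAAA, which contains it, in 5 of 13 and 6.82%. The pair within 30 bases was found in 4 of 13 enzyme promoters and in 4.91% of all. Enzymes without TGGGAA also moved with the acinar enzyme median, of which they are part. Pearson's r over the 6 samples was 0.994 to 0.999 for Cela1, Cela3b, Cpb1, Pla2g1b and Prss3, and 0.865 for Pnliprp2. The motif matches are descriptions of the sequence and not measured binding.

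**Figure D3:**
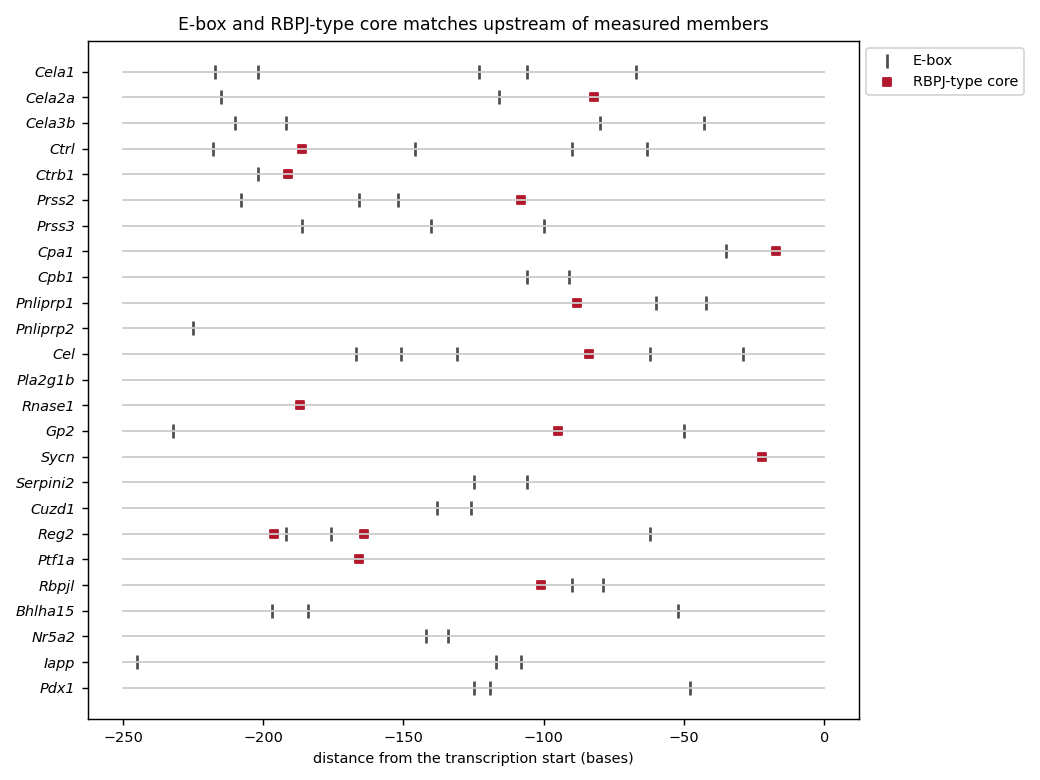
Positions of CANNTG (E-box, grey ticks) and TGGGAA (RBPJ-type core, red squares) on either strand in the 250 bases before the transcription start of the 25 measured members with a promoter sequence, with distance from the start in bases on the horizontal axis. Most of these promoters hold at least 1 E-box, and Rbpjl, Cel, Ctrb1 and Cpa1 are among those with both motifs within 30 bases.

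The 2 islet members above the floor throughout, Ins2 and Pdx1, did not show the full acinar order, which 1.68% of the 11923 genes showed. Ins2, the insulin gene conserved with that of other mammals, read 5.44, 3.74 and 8.40 in the PBS samples and 3.53, 6.03 and 2.63 in the free Ub samples. PBS 3 was highest for Ins2 as for the enzymes, but free Ub 1, second for the enzymes, lay above only free Ub 3 for Ins2, and free Ub 2 was second. With free Ub 1 set aside, the other samples kept the order of the enzyme median. Over the 6 samples Pearson's r of Ins2 with that median was 0.66. Ins1 and Ins2 are near-identical paralogs, so the source of the signal between them is uncertain. Iapp, amylin, which beta cells secrete with insulin, was at the floor in all 6 samples. Pdx1, a homeobox factor of beta cells that the duodenum also expresses, read 9.06, 9.10 and 8.56 with PBS and 9.18, 8.68 and 9.44 with free Ub, and its 2 lowest samples, PBS 3 and free Ub 2, were the 2 highest for Ins2. Because Iapp was at the floor, a median over the islet members says little, and each gene is described on its own.

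Other islet genes were measured beside them. Gcg, glucagon, which gut L cells also make, read 6.86 in PBS 3 and 6.51 in free Ub 2, its highest samples as for Ins2, and between 5.54 and 6.01 in the others. Ppy, pancreatic polypeptide, was above the floor only in PBS 3, at 3.58, and Mafa, a beta cell factor, also only there, at 1.07. Sst, somatostatin, stayed between 9.17 and 9.94, Scg5 between 4.39 and 5.61 and Nkx2-2 between 4.06 and 4.87. Of the 19 measured islet comparison genes 11 were above the floor throughout and 0 showed the order of PBS 3 and free Ub 1 highest with free Ub 3 lowest. That order was held by 1.68% of the 11923 genes, so a 0 in so short a list says little. Many of the 19 are also made by enteroendocrine cells.

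Duct cells line the channels that carry the enzymes. Of 12 measured duct genes, 11 were above the floor in all samples, and Muc1 alone had the acinar order. Muc1, an apical mucin of ductal and acinar cells, read 5.15, 4.41 and 7.26 with PBS and 7.02, 5.10 and 3.20 with free Ub, and PBS 3 and free Ub 1 were its highest samples on all 4 of its probes. Prom1 spanned 1.91 log2 and Car2 1.41 log2 in other orders. Krt19, Sox9 and Cftr, a keratin, a transcription factor and a chloride channel of ducts that the gut epithelium also expresses, each spanned less than 1 log2.

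Acinar genes outside the list moved with its enzymes. Of the 10 measured genes of the further acinar list, 8 were above the floor throughout and 6 of these showed the acinar order. Try5, a trypsinogen, read 11.71, 9.87 and 13.77 with PBS and 13.83, 12.28 and 7.00 with free Ub. Try10, another trypsinogen, read 12.34, 10.62 and 14.17 with PBS and 14.27, 13.04 and 7.55 with free Ub. Erp27, a chaperone-like protein of the endoplasmic reticulum, read 6.75, 4.30 and 9.21 with PBS and 9.03, 6.50 and 2.24 with free Ub. All 3 had PBS 3 and free Ub 1 at the top and free Ub 3 at the bottom. The probes of Try5 and Try10 may share signal with those of the trypsinogen members. The brightest probe of Amy2a5, pancreatic amylase, read 14.49, 14.17 and 14.07 with PBS and 14.03, 14.15 and 12.32 with free Ub, within 0.5 log2 of the highest value of the array in 5 of the 6 samples. A dimmer Amy2a5 probe read 12.15, 10.60 and 14.23 with PBS and 13.69, 13.29 and 7.99 with free Ub, in the order of the enzymes at its ends, so the probes of amylase disagreed where the brightest was near the top of the scale. Dnase1, which the gut also makes, differed from the enzymes and was highest in free Ub 2, at 10.33.

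The genes most like the acinar median were sought by Pearson's r over the 6 samples, as a description, among genes with a mean above 4 log2 and an SD of at least 1 log2. Of 8861 genes with that mean, 82 had that SD, and 22 of the 82 were members. The 10 non-members most like the median were Gm5771, Gm5409, Gm10334, Try4, Try5, 2210010C04Rik, Pdia2, Try10, Erp27 and Cabp2, with r from 0.985 to 0.999. Trypsinogens among them may share signal with Prss2 and Prss3, so the 10 are not all separate from the members. Of the 50 genes with the highest SD, 20 were members, and 37 were members, whatever their r, or had r above 0.9. The enzyme members also make up the median they are compared with. The 6 samples share 1 normalization, and r is over 6 points only.

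**Figure D4:**
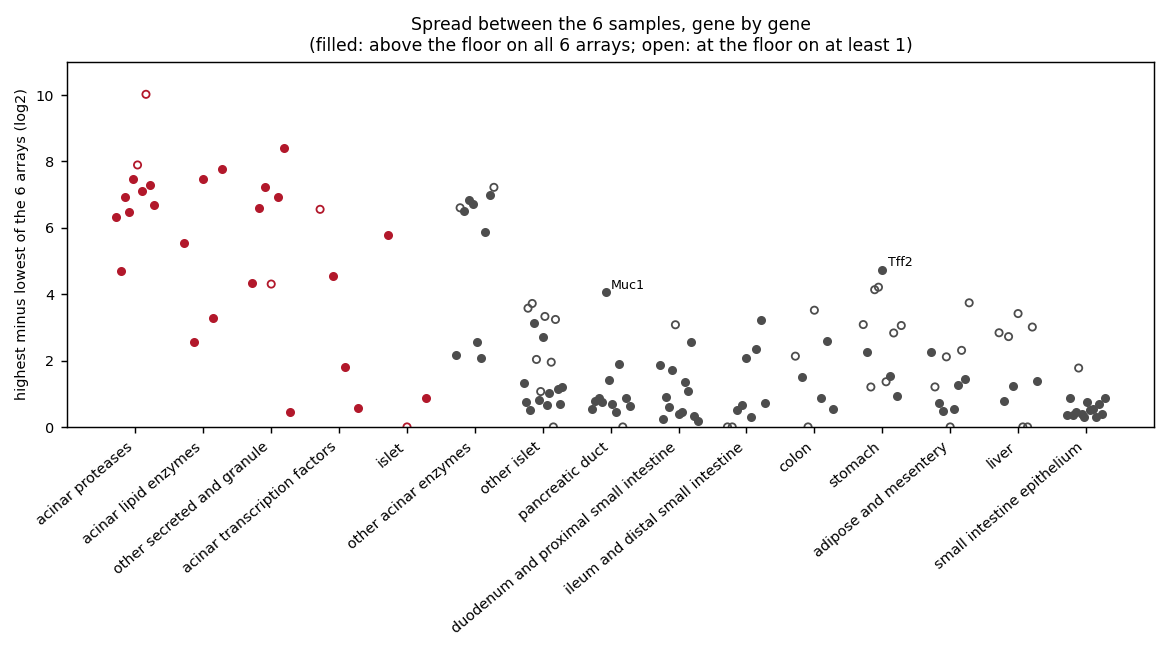
Highest minus lowest of the 6 samples (log2, vertical axis) for each measured gene, with members in red and comparison genes in grey, by list. Acinar enzymes of both kinds mostly span over 4 log2, epithelial genes stay below 1 log2 apart from 1 gene at the floor in 3 samples, and Muc1 and Tff2 are the only other comparison genes above the floor throughout that span over 4 log2.

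Genes of neighbouring tissues were read in the same samples. Tff2, a trefoil peptide of stomach and of duodenal glands that is also found in the pancreas, read 10.09, 8.24 and 12.17 with PBS and 11.83, 9.80 and 7.44 with free Ub, in the acinar order. Among the other stomach genes Ghrl, ghrelin, stayed between 8.56 and 9.48 and Pgc, a pepsinogen, between 3.53 and 5.08. Of the 11 measured stomach genes 4 were above the floor throughout, and 1 of these, Tff2, showed the acinar order. Of 11 measured fat and mesothelial genes, 6 were above the floor throughout and 0 of these showed the acinar order. Adipoq, adiponectin, ran from 0.92 in PBS 3 to 3.18 in PBS 2, and Retn, resistin, was at the floor in all 6. Of 9 measured liver genes, 3 were above the floor throughout (Ttr, Apoa2 and Ahsg), 2 were at the floor in all 6 samples, and 0 showed the acinar order. With 1.68% of the 11923 genes in that order, a 0 in the short fat and liver lists says little. Alb, serum albumin, was at the floor in 4 samples.

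A different pair of samples, PBS 3 and free Ub 2, stood together in some genes of intestinal position and of other lists, and not in others. Of the 23 duodenum, ileum and colon genes above the floor throughout, 6 had their 2 lowest values in this pair and 1 its 2 highest, against 7.15% and 4.36% of the 11923 genes. The 6 were Cybrd1 and Slc40a1 (duodenum), Nr1h4, Nts and Pyy (ileum) and Mettl7b (colon). Nts was dim, between 1.09 and 3.45 log2. The pair was picked out in these data and not set beforehand, so the counts for it are descriptions. The pair was also lowest in 4 of 13 small intestinal epithelium genes and 4 of 11 duct genes above the floor throughout, and highest in 0 of either list. Low values in this pair were thus also seen in lists not drawn up for intestinal position. Whether the genes of those lists vary along the intestine was not tested. Cybrd1, the duodenal iron reductase, read 7.28, 6.70 and 5.20 with PBS and 7.75, 6.34 and 7.64 with free Ub. Pyy, peptide YY of L cells, read 8.36, 7.77 and 6.17 with PBS and 8.18, 5.13 and 7.95 with free Ub. Gip, a hormone of duodenal K cells, read 5.99 in PBS 3, its lowest sample, but 7.61 in free Ub 2, its second highest, and Gata4, a factor of the proximal gut, read 4.65 and 5.19 in this pair within a range of 3.66 to 5.54. Car4, a carbonic anhydrase, was highest in these samples, at 7.23 and 7.41, against 5.91 to 6.28 in the others. Among genes chosen after their values were seen, Trpv6, a calcium channel of the duodenum, read 5.23 and 6.16 in PBS 3 and free Ub 2 against 7.20 to 8.49 in the others. Nkx6-3, a homeobox factor of the stomach outlet, likewise chosen, was at the floor in these samples and between 7.53 and 7.86 in the others. These are also the samples with the highest Ins2 and the lowest Pdx1, while the acinar genes were highest in PBS 3 and free Ub 1. Whether the stretch of intestine sampled or attached pancreas had a part in any of these values was not tested.

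Free Ub and PBS were then compared for every member. Of the 29 measured members, 0 passed an adjusted p under 0.05 by limma, where 0.0577% of all named genes did, and 0 passed an unadjusted p under 0.05, where 5.74% did (2.34% higher and 3.4% lower with free Ub). The smallest member p was that of Ins2, with an adjusted p of 0.874 by limma. The values of the groups overlapped in all 24 members above the floor throughout, leaving 0 without overlap, against 10.7% of the 11923 genes. The mean was lower with free Ub in 25 members and higher in 3, where 52.9% of the named genes above the floor in at least 1 sample were lower. Without free Ub 3 the counts were 1 lower and 27 higher, where 54.5% of those genes were lower. Without PBS 3 they were 8 lower and 20 higher, where 55.7% of those genes were lower. An exact permutation test of 3 against 3 cannot go below p = 0.1 for a single gene.

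The differences were small beside their intervals. Ctrb1 differed by -1.05 log2 (95% interval -7.29 to 5.20, n = 3 per group), Pnliprp2 by 0.20 log2 (-2.23 to 2.62) and Ptf1a by -0.51 log2 (-6.12 to 5.11). For Ins2 the difference was -1.80 log2 (-6.03 to 2.44) and for Pdx1 0.20 log2 (-0.51 to 0.90). Apart from Iapp, at the floor throughout, the narrowest intervals were those of Spink1, near the top of the scale, at 0.02 log2 (-0.34 to 0.37), and of Nr5a2 at -0.11 log2 (-0.61 to 0.38). Over the 15 acinar enzymes the median difference was -0.93 log2, with 14 lower and 1 higher, beside -0.00 log2 over all named genes. Without free Ub 3 it turned to 1.03 log2, and without PBS 3 to 0.14 log2, so single samples set its direction. Ctrb1 and Ptf1a likewise turned positive without either sample.

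**Figure D5:**
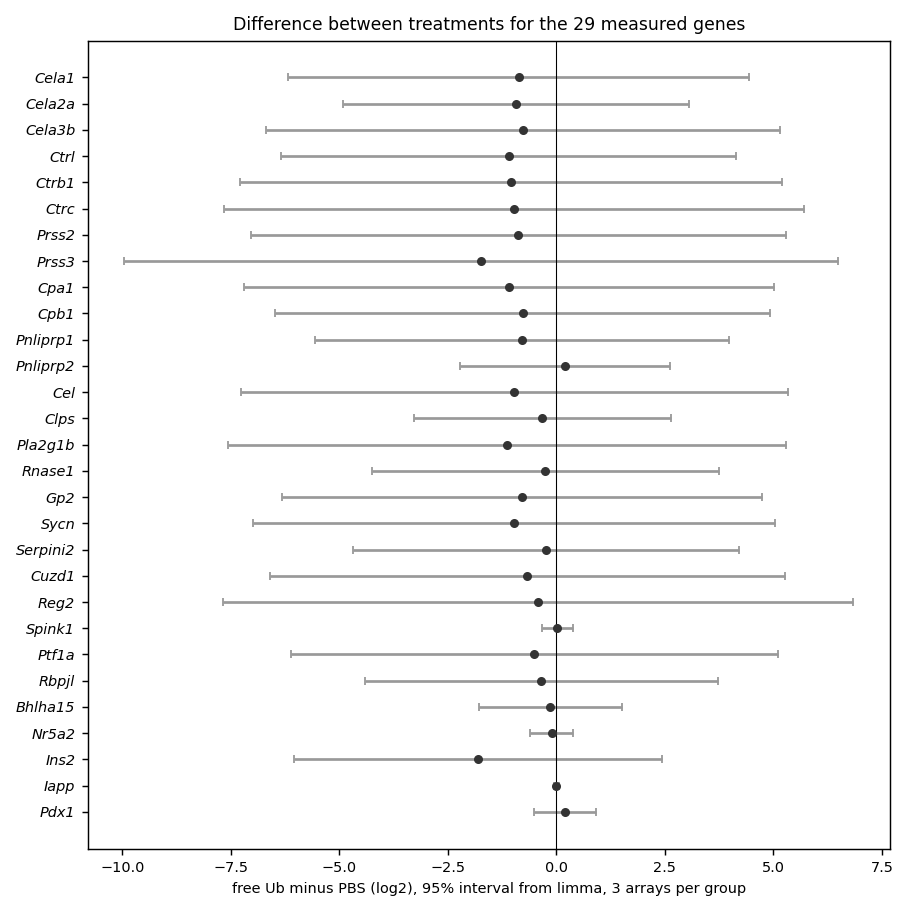
Free Ub minus PBS (log2, horizontal axis) for the 29 measured members, with the point at the difference of the group means and the bar at its 95% interval from limma (3 arrays per group). Every interval includes 0, and those of most acinar genes reach from below -4 to above 4 log2.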

How the data were processed

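Total RNA of 6 samples of irradiated mouse intestine, 3 PBS and 3 free Ub, was isolated with trizol, depleted of ribosomal RNA and measured on Illumina MouseWG-6 v2 arrays. The authors normalized the signals by cubic spline in GenomeStudio, whose version is not given in the sources used here. The deposited numbers were taken as log2 signals from their range, since the log base, the background handling and the floor are not described. No detection p-values were used here. The labels number the samples of each group and do not say whether each came from a separate mouse, so p-values measure only the spread between these samples. The number of arrays limits the precision.

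Of 45281 probes, 34885 had 1 gene symbol, 18 several and 10378 none in the platform annotation, which gave 19057 genes. Each gene was represented by the probe of highest mean, and a value within 0.01 of the array's lowest counted as at the floor. Differences (free Ub minus PBS, without covariates) were tested for all probes with lmFit and eBayes of limma 3.58.1 under R 4.3.3, two-sided, and p-values were adjusted over all genes by the Benjamini-Hochberg method. The fit was tested on simulated data. The members and lists were chosen with earlier results of these data known. Values in every sample are printed for members above the floor throughout that span at least 1 log2 and for the transcription factor and islet members. Of each comparison list the genes named are mainly the up to 3 of largest span with a mean above 4 log2, and others are given where a result turns on them. The alternatives tried were the replicate block, array weights, an intensity trend with robust variances, quantile normalization, centring on the median, raising values under 4 or 6 log2, a filter on dim probes, all probes of a gene averaged, the methods' t-tests (unpaired and paired) and leaving out each sample.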

Additional observations from a re-analysis of the deposited data

How the results depend on the processing

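The 0 members at an adjusted or unadjusted p under 0.05 stayed at 0 under array weights, an intensity trend, quantile normalization, centring on the median, values under 4 or 6 log2 raised, the filter on dim probes, the mean of a gene's probes, both of the methods' t-tests and leaving out each sample. The columns already shared a common median, and quantile normalization and centring barely changed the values. The acinar enzyme median difference was -0.93 log2 under both, so these alternatives say little about normalization. That difference of -0.93 log2 ranged from -2.38 to 1.03 when 1 sample was left out, and was -0.88 over the members above the floor in all 6 samples, an alternative chosen after seeing the data. The range of the acinar enzyme median between samples ran from 4.06 (without free Ub replicate 3) to 6.94 log2 when 1 sample was left out. The members spanning at least 4 log2 numbered 11 without free Ub 3 and 17 or 18 without any other sample. Of all genes above the floor throughout, 0.344% and 0.369% to 0.503% did so. Members lower with free Ub ranged from 1 (without free Ub 3) to 27 (without free Ub 1). Of the named genes above the floor in at least 1 sample, 54.5% and 51.5% were lower then. These counts were also chosen after seeing the data. The islet median difference of -0.00 log2 became -0.80 under the filter on dim probes, which leaves 2 genes because Iapp drops out. Leaving out 1 sample gave -2.57 to 1.08 log2 for Ctrb1, -0.37 to 0.91 for Pnliprp2, -1.84 to 1.02 for Ptf1a, -2.86 to -0.53 for Ins2 and 0.02 to 0.41 for Pdx1. Array weights turned Pnliprp2 to -0.54 log2, and the cause was not tested. Samples with the same replicate number did not deviate together (correlations of -0.00, 0.02 and -0.09). For PBS 1 to PBS 3 the best correlations with a free Ub sample of another number were also low, at 0.02, 0.08 and 0.09. Such values cannot show whether samples were paired in handling. With the replicate block 0 members passed an adjusted or an unadjusted p under 0.05. Signals near the floor and near the highest value of the array limit how far a span can be read.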
